A study of Mus musculus with 5 samples.

Results

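The genes described here are the mouse counterparts of the human chromosomal region 22q11.2. They were taken from a list of 32 gene symbols, and every probe set annotated to exactly 1 of these genes was used, with renamed genes matched by their Entrez identifier. Of the 32 genes, 29 were measured by 55 probe sets, out of 12393 genes and 20380 probe sets of 1 gene in all. The citrate carrier gene Slc25a1, the apoptosis-inducing factor family gene Aifm3 and the septin gene Septin5 had no probe set of their own in the annotation used here. A single probe set was annotated to both Septin5 and Gp1bb and is reported apart from the members.

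Expression was measured in 5 wild-type samples of mouse tissue at E10.5, all of 1 group and with no treated or mutant group to compare. Each sample was a separate dissected isolate that held the pharyngeal arches and, by its label, the second heart field. The mice came from a 129P2/OlaHsd line crossed back to C57BL/6 for 2 generations. RNA (10 ng per sample) was amplified, labelled with biotin and hybridised to an Affymetrix mouse genome 430A array. Nothing in the labels says whether the isolates came from different litters, so the spread between them may be partly technical. The tissue was measured whole, and a signal does not show which cells the RNA came from. Fewer cells of a type and less RNA per cell cannot be told apart.

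Loss of 22q11.2 from a single chromosome causes a frequent human microdeletion syndrome, with defects of the outflow tract, the arch arteries, the thymus, the parathyroids and the palate. These organs form from or with the help of the pharyngeal arches, and the best known gene of the region for them is the T-box factor Tbx1. The other genes have unrelated tasks, from nuclear transport and DNA replication to mitochondrial metabolism, adaptor signalling and platelet adhesion. In the mouse the counterparts lie together on chromosome 16, in an order that is rearranged relative to the human region. In the RefSeq gene table for GRCm38.p6, all 32 genes lay on chromosome 16 in a stretch of 1.69 Mb that held 46 protein-coding genes.

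Signals are in scaled array units. Where a gene had several probe sets, the brightest by mean log2 signal stood for it. Because probe sets differ in how well they bind, a larger signal or excess is not read as more transcript than that of another gene. Each gene was set against a background level of its array, the 95th percentile over probe sets of 173 genes of sensory receptor, gland, hair, sperm and lymphocyte receptor families. That level was a signal of 16.9, 16.1, 18.1, 23.0 and 24.0 in replicates 1 to 5. The excess is the mean log2 signal minus this level, with its SE, and a gene was called above background at a Benjamini-Hochberg adjusted p below 0.05 in a one-sided limma test. A higher level of 68.0, 90.7, 95.5, 107 and 96.6 served as an alternative. It also counted probe sets of the widely expressed casein kinases and interferon receptors as background, so it is strict.

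The arrays had median signals from 28.1 to 32.2. Markers of the labelled tissue were above background for 5 of 8 genes of crest and arch mesenchyme and for 4 of 7 second heart field genes, with Nkx2-5, Fgf10, Hand2 and Tbx1 among those not called. Markers of other cells were also called, namely 6 of 6 neuronal genes, 5 of 5 erythroid genes, 4 of 7 endothelial genes, 3 of 5 cardiac muscle genes, 2 of 4 platelet genes, 1 of 4 leukocyte genes and 1 of 5 liver genes. Replicate 4 stood apart in genes of the sex chromosomes. Xist, the RNA of the inactive X, gave 916 there and 1.28 to 26.3 in the other samples, and the Y-linked Eif2s3y gave 20.1 there and 769 to 968 elsewhere. These genes were chosen after their values were seen, and the counts of members are also given without that sample.

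Of the 29 measured members, 18 (62.1%) were above background, beside 54.0% of all 12393 genes. Without replicate 4 there were also 18. Against the higher level 6 members (20.7%) were called, beside 30.1% of all genes, so the members' share lay above the share of all genes at the first level and below it at the second. The 6 were Ranbp1, Med15, Ufd1, Mrpl40, Dgcr2 and Cdc45, and each was called in all 13 settings that were run. Another 9 members were called in no setting. The median excess of the 29 members was 1.22 log2 units, beside 0.86 for all genes. With a gene called from any of its probe sets the count was also 18, beside 53.9% of all genes. That rule nearly repeats the main one, which takes the brightest probe set, so it is no separate check. With the mean of all probe sets, 13 of the 29 members were called, beside 5913 of all 12393 genes. The members' share then lay below that of all genes. In 17 members (58.6%) the signal exceeded the level in all 5 samples, beside 52.2% of all genes.

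**Figure D1:**
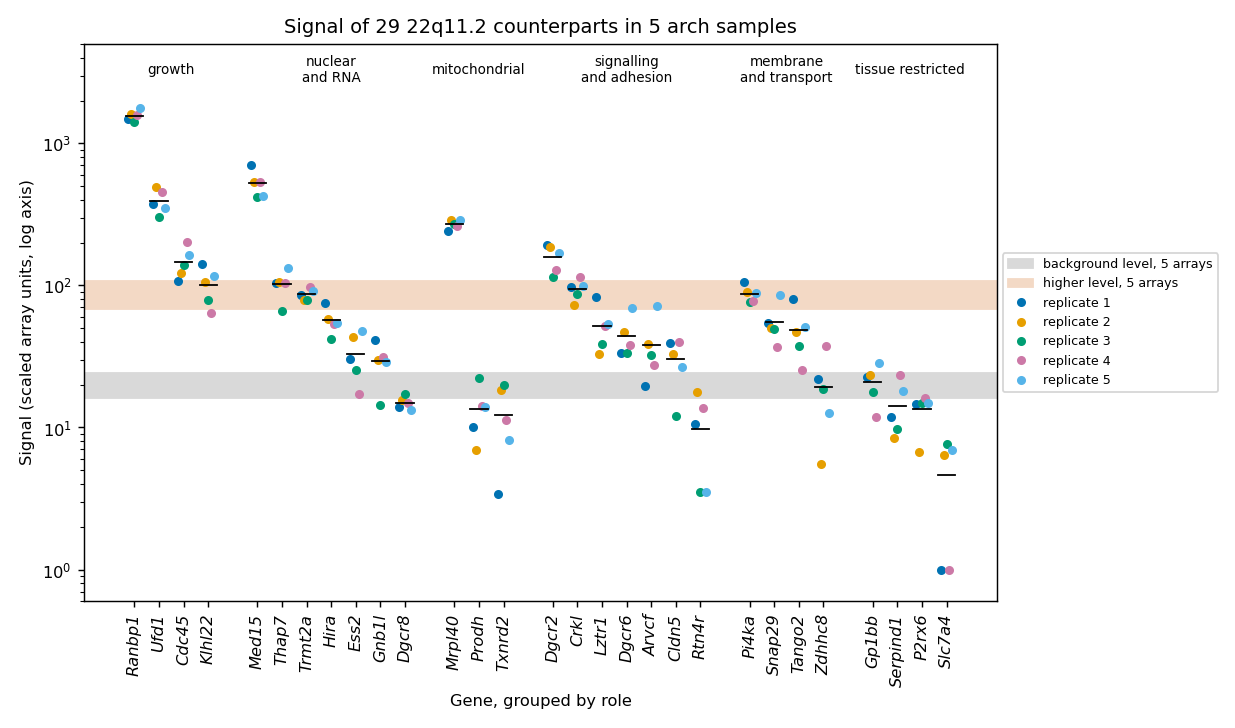
Signal (scaled array units, log axis) of each of the 29 measured members in the 5 samples, grouped by role, with colored points for replicates and a black line for the mean. The grey band spans the background level of the 5 arrays and the tan band the higher level; heights of different genes are not comparable, and the means of the 4 tissue restricted genes lie in or under the grey band.

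For description the members were grouped by role, and the counts by role stand beside the 54.0% of all genes. No test of these groups was made. The genes of growth and protein turnover were all 4 above background. Ranbp1 encodes a binding partner of the GTPase Ran that helps nuclear transport and the mitotic spindle. It gave 1485, 1609, 1411, 1578 and 1759 in replicates 1 to 5 (mean 1568 ± 132, SD, n = 5), an excess of 6.34 ± 0.14 log2 units (adjusted p = 1.02e-22, limma). The 5 samples stayed within a 1.25-fold range, and the lowest was far over both levels.

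Ufd1, with Nploc4, brings ubiquitin-tagged proteins to the segregase Vcp. It gave 376, 490, 302, 451 and 352 (mean 394 ± 75.9), an excess of 4.33 ± 0.17. Its second probe set, with an excess of 3.25 ± 0.18, was called too. Cdc45 is a subunit of the replicative helicase. Its signals were 106, 122, 139, 202 and 162 (146 ± 37.3, excess 2.88 ± 0.17), highest in replicate 4 and lowest in replicate 1, and over the higher level in all 5 samples. Klhl22 is a substrate adaptor of the ubiquitin ligase built on Cullin-3. It gave 141, 105, 79.5, 64.3 and 116 (101.2 ± 30.2, excess 2.33 ± 0.21) and was not called against the higher level, which it passed in 3 of 5 samples.

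The start of Ranbp1 lies head to head with that of Trmt2a, the gene of a transfer RNA methyltransferase that was also above background, and the starts of these genes are 189 bases apart in RefSeq (GRCm38.p6). The members held 5 such pairs, in which the genes are read away from each other from starts at most 1000 bases apart. The others were Cdc45 with Ufd1 (322 bases), Pi4ka with Snap29 (135 bases), Mrpl40 with Hira (113 bases) and Tango2 with Arvcf (84 bases). All 10 genes of these pairs were above background. Against the higher level 4 of them were called, namely Ranbp1, Cdc45, Ufd1 and Mrpl40. P2rx6, which starts 638 bases from a gene that is no member, was not above background. Of the 17 measured members with a known start and no such neighbour, 8 were (47.1%). Over all genes with a known start, 832 of 1048 head-to-head genes (79.4%) were above background, beside 4619 of 8737 others (52.9%). This grouping was chosen after the calls were known, and no test was made.

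The bases between the genes of 3 pairs are shown as examples. The pairs Cdc45-Ufd1 and Pi4ka-Snap29 are not shown, although both genes of each were called too. Tango2 and Arvcf also have other listed starts farther away. They are from RefSeq, build GRCm38.p6, on the plus strand, from the base after the span of the left gene to the base before the span of the right gene. The span of Trmt2a begins before its start used for the distance of 189 bases, so that stretch is shorter than the distance. Capitals mark matches, searched on both strands, to motifs of 6 kinds of factor. For E2F these were TTTCCCGC, TTTCGCGC, TTTGCCGC and TTTGGCGC, and for NRF1 the motif was GCGCATGC. The GC box was searched as GGGCGG. The motif of the ETS family was searched as CGGAAG. The box of the TATA-binding protein was searched as TATAAA. The box bound by NF-Y was searched as the letters CCAAT. None of the marked matches overlap each other.
Ranbp1-Trmt2a, chr16:18248695-18248846: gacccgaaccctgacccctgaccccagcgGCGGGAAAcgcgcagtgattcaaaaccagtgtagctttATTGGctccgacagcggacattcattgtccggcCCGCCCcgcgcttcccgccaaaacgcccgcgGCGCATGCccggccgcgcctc
Mrpl40-Hira, chr16:18876638-18876749: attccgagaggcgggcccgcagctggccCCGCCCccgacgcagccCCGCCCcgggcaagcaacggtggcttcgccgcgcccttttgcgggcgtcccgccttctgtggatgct
Tango2-Arvcf, chr16:18348099-18348181: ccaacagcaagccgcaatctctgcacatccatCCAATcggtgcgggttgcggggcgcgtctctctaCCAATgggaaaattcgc

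The stretch between Ranbp1 and Trmt2a, of 152 bases, held an E2F, a CCAAT, a GC box and an NRF1 match and 19 CG dinucleotides. The stretch between Mrpl40 and Hira (112 bases) held 2 GC boxes and 15 CG dinucleotides, and that between Tango2 and Arvcf (83 bases) held 2 CCAAT boxes and 7 CG dinucleotides. The 150 bases before the starts of Serpind1 and P2rx6, both without a call, are shown as the members with the lowest CG ratios. The first held no CG dinucleotide and none of these motifs, and the second held 2 CG dinucleotides and a GC box. Other members without a call were rich in CG, with ratios of observed to expected of 1.11 for Rtn4r, 1.04 for Dgcr8 and 1.02 for Zdhhc8.
Serpind1, chr16:17331221-17331370, plus strand: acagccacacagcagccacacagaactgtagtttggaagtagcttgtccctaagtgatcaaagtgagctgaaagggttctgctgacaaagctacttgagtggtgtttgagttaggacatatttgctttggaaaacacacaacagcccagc
P2rx6, chr16:17561735-17561884, plus strand: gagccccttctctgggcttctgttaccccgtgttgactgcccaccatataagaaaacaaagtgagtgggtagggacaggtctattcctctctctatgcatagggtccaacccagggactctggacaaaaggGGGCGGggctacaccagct

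Promoter windows of 300 bases, from 250 before to 50 after a start, were known for 30 of the 32 members. The ratio of observed to expected CG dinucleotides, which is near 1 where they are not depleted, had a median of 0.80 in these 30 windows and 0.39 in windows of all 27025 genes. The 27025 genes were not limited to protein-coding genes, which the members are, or to genes on the array. Their ratio and the shares below are thus not from a like set. The median ratio was 0.82 for the 18 called members and 0.64 for 10 members without a call. An E2F match stood in 2 of the 30 windows, those of Ranbp1 and Trmt2a, which overlap, and in 2.32% of all windows. NRF1 matches stood in 4 of 30 (2.80% of all), ETS matches in 13 of 30 (17.2%), GC boxes in 23 of 30 (35.9%; 13 of 18 called and 8 of 10 uncalled members), CCAAT boxes in 14 of 30 (37.9%) and TATA boxes in 4 of 30 (14.2%). These are matches of letters in the window that the RefSeq table lists first for each gene, and show no binding. For Pi4ka that window is not the one at the start nearest to Snap29. The windows of Cdc45 and Ufd1, of Tango2 and Arvcf, and of Mrpl40 and Hira overlap too. A match in such a pair, as in Ranbp1 and Trmt2a, can thus be counted for both genes, also for motifs other than E2F.

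**Figure D2:**
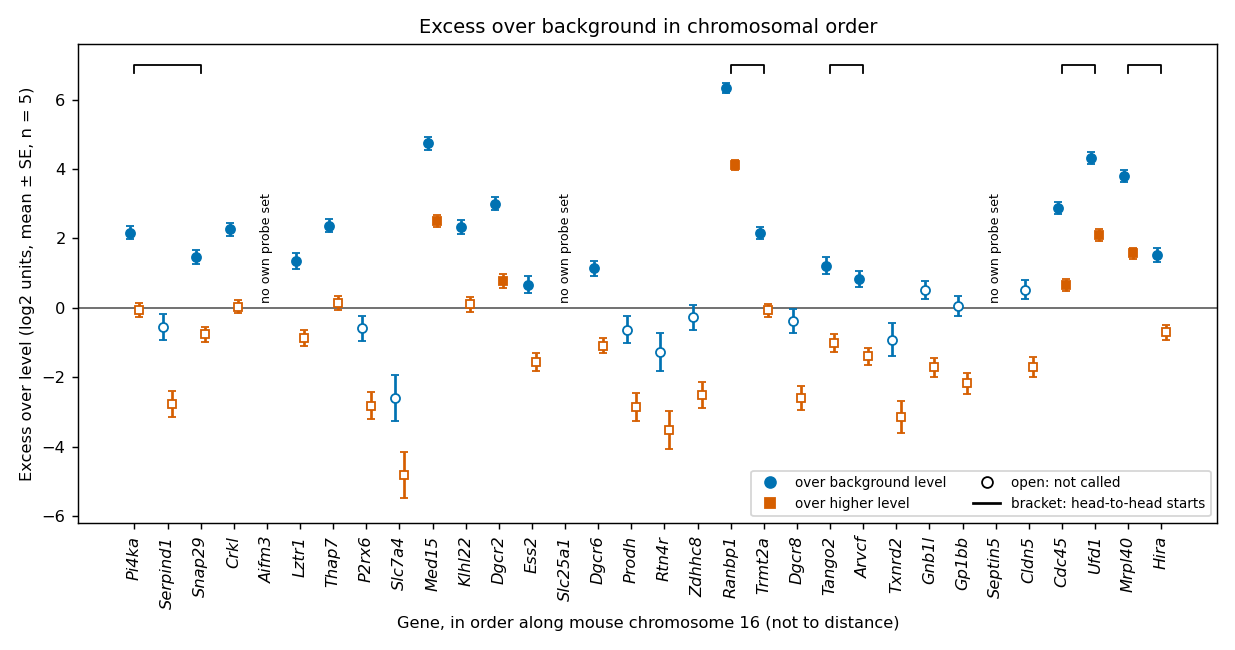
Excess over the background level (blue circles) and over the higher level (orange squares) in log2 units, mean ± SE with n = 5, for the 32 genes in their order along mouse chromosome 16. Filled symbols were called and open ones were not, brackets join the 5 pairs with head-to-head starts, and all 10 genes under brackets have filled circles.

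Among nuclear and RNA genes, 5 of 7 were above background. Med15 is a tail subunit of Mediator, the complex that links transcription factors to RNA polymerase. It gave 702, 538, 421, 537 and 425 in replicates 1 to 5 (524 ± 114, excess 4.73 ± 0.18, adjusted p = 3.25e-18, limma), with the highest signal in replicate 1. Hira is a histone chaperone that places the variant histone H3.3. Its signals were 74.6, 58.4, 41.8, 53.7 and 54.7 (56.7 ± 11.8, excess 1.52 ± 0.21), with all 3 of its probe sets called.

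Trmt2a gave 85.3, 78.4, 79.2, 97.2 and 91.9 (86.4 ± 8.12, excess 2.15 ± 0.18), and the samples stayed within a 1.24-fold range. That range holds for its brightest probe set. Other probe sets of Trmt2a were called too (excess 0.98 and 0.66) but ran from 14.3 to 56.9 and from 18.1 to 48.4. Both were lowest in replicate 5, and the remaining probe set was not called (excess -1.40). Thap7, a zinc finger protein of the THAP family, gave 104, 106, 66.1, 103 and 133 (102 ± 23.8, excess 2.37 ± 0.19), lowest in replicate 3. Its other 2 probe sets were not called (excess -0.49 and -2.84), and with the mean of all 3 its excess was -0.32. Ess2, a nuclear protein found with spliceosomes, gave 30.5, 43.6, 25.3, 17.2 and 47.9 (32.9 ± 12.7). It was over the level in 4 of 5 samples and below it in replicate 4, and its excess of 0.67 ± 0.26 was close to the threshold (adjusted p = 0.0147, limma). Without replicate 2 that p was 0.103 and without replicate 5 it was 0.0564, so its call depended on either sample. Its second probe set was not called (excess -3.37).

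Dgcr8 and Gnb1l were not called. Dgcr8 binds primary microRNA transcripts for the nuclease Drosha. Its only probe set gave 14.0, 15.5, 17.2, 14.8 and 13.2, below the level in all 5 samples (excess -0.38 ± 0.34). The spread was small, with an SD of 0.14 log2 units. A probe set without signal can bind poorly, so no absence of the transcript follows. The WD-repeat gene Gnb1l gave 41.5, 29.8, 14.4, 31.5 and 28.99 (excess 0.52 ± 0.26, adjusted p = 0.0522, limma). Replicate 3 was its low sample, and without that sample the excess was 0.73 and the adjusted p 0.0110.

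Of the 3 measured mitochondrial genes, Mrpl40, a protein of the large subunit of the mitochondrial ribosome, was above background. It gave 241, 287, 272, 261 and 290.0 (270.1 ± 20.0, excess 3.80 ± 0.17, adjusted p = 1.08e-16, limma), the narrowest range of all called members at 1.202-fold. Txnrd2 encodes the mitochondrial thioredoxin reductase. It gave 3.38, 18.5, 19.9, 11.3 and 8.12, over the level in replicates 2 and 3 alone (excess -0.91 ± 0.47), and its second probe set was not called. Prodh, proline dehydrogenase, gave 10.0, 6.90, 22.3, 14.1 and 14.0 (excess -0.63 ± 0.38), over the level in replicate 3 alone.

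Signalling and adhesion genes gave 5 calls among 7. Crkl is an adaptor that passes signals from growth factor receptors, FGF receptors among them, and its loss in mice disturbs arch derivatives. It gave 97.9, 72.2, 86.3, 114 and 98.3 (93.8 ± 15.6, excess 2.26 ± 0.18, adjusted p = 1.46e-11, limma). All samples lay over the background level and 3 of 5 over the higher one. Its other 3 probe sets were not called, with excesses of -0.06, -1.41 and -2.25. Lztr1, an adaptor of Cullin-3 that acts on RAS-family GTPases, gave 83.4, 32.7, 38.7, 51.5 and 53.7 (52.0 ± 19.6, excess 1.35 ± 0.22). Replicate 1 was its high sample, and its second probe set was called as well.

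Dgcr2, a membrane protein with a lectin-like domain, gave 191, 187, 114, 129 and 170 (158 ± 34.98, excess 3.001 ± 0.19), over the higher level in all 5 samples. Replicates 3 and 4 were the low ones, and its other 2 probe sets were not called (excess 0.51 and -0.62). The brightest Dgcr6 probe set is of the _s_at kind, like those of Gnb1l and Slc7a4. Probes of this kind can match transcripts of more than a single gene. That Dgcr6 probe set gave 33.3, 47.2, 33.5, 38.2 and 69.1 (44.2 ± 15.0, excess 1.13 ± 0.21). A second probe set was called (excess 0.84) and the remaining probe set was not (excess -1.95). Arvcf, a catenin of the p120 family that binds cadherins, gave 19.6, 38.6, 32.3, 27.7 and 71.2 (37.9 ± 19.9, excess 0.83 ± 0.24), highest in replicate 5 and lowest in replicate 1. Its 3.63-fold range was the widest of the called members, and its other 2 probe sets were not called (excess -0.52 and -1.61).

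Cldn5 and Rtn4r were not called. Cldn5, a tight junction protein of endothelial cells, gave 39.6, 32.8, 12.1, 39.7 and 26.8 (excess 0.52 ± 0.27, adjusted p = 0.0578, limma). It lay over the level in all samples but replicate 3, and without that sample its adjusted p was 0.00535, against 0.0496 without replicate 5. The summed signal of the 7 endothelial markers ran from 667 in replicate 1 to 871 in replicate 4, with 691 in replicate 3. Of these, Kdr, Tek, Flt1 and Cd34 were called and Cdh5, Pecam1 and Tie1 were not. The part of endothelial cells in the Cldn5 signal was not tested. Rtn4r, the receptor for the myelin inhibitor Nogo, gave 10.53, 17.7, 3.52, 13.7 and 3.51 (excess -1.29 ± 0.55), over the level in replicate 2 alone.

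Of the membrane and transport genes, 3 of 4 were above background. Pi4ka, the kinase that makes phosphatidylinositol 4-phosphate at the plasma membrane, gave 105, 89.9, 77.0, 77.0 and 87.7 (87.4 ± 11.6, excess 2.16 ± 0.19). Its second probe set was not called (excess -0.32 ± 0.34). Snap29, a SNARE protein of membrane fusion and autophagy, gave 54.7, 50.5, 49.1, 36.9 and 85.0 (55.2 ± 17.9, excess 1.46 ± 0.21), high in replicate 5 and low in replicate 4.

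Tango2, named for a screen on transport and Golgi organization, gave 79.7, 47.2, 37.7, 25.6 and 51.1 (48.3 ± 20.2, excess 1.22 ± 0.24). Its 3.12-fold range ran from replicate 4 to replicate 1. Zdhhc8, which attaches palmitate to proteins, gave 21.8, 5.53, 18.6, 37.2 and 12.5 (excess -0.28 ± 0.36). It lay over the level in replicates 1, 3 and 4 and below it in the others.

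None of the 4 genes grouped as tissue restricted was above background, beside 54.0% of all genes. The uncalled Cldn5, of endothelial cells, was counted with signalling and adhesion, so this count depends on how the groups were drawn. Gp1bb, a subunit of the platelet receptor for von Willebrand factor, gave 22.7, 23.6, 17.8, 11.8 and 28.6 (excess 0.05 ± 0.30, adjusted p = 0.733, limma), with 3 of 5 samples over the level. The probe set shared with Septin5 gave 16.2, 23.7, 23.2, 9.41 and 17.9, over the level in 2 of 5. Its platelet partners Gp5 (excess -1.54) and Gp9 (excess -1.15) were not called. The summed signal of 4 platelet markers ran from 69.4 in replicate 4 to 174 in replicate 3. Of these, Pf4 and Ppbp were called, while Itga2b and Gp9 were not. Their part in the Gp1bb signal was not tested.

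Serpind1 encodes the plasma inhibitor heparin cofactor II, made by the liver. It gave 11.8, 8.45, 9.67, 23.3 and 18.0 (excess -0.55 ± 0.36). Replicates 4 and 5 were its high samples, and their arrays had the highest background levels, 23.0 and 24.0. Serpind1 lay over the level in replicate 4 alone. Of 5 liver markers Ttr alone was called, with 349, 253, 507, 34.4 and 508, lowest in replicate 4. The summed signal of the other 4 (Alb, Afp, Apoa1 and Fgb) was 49.2, 32.1, 25.8, 74.3 and 329, highest in replicates 5 and 4. Afp alone gave 198 in replicate 5, and the sums were not set against the background level of each array. The part of liver cells in the Serpind1 signal was not tested. P2rx6, an ATP-gated channel subunit, gave 14.6, 6.67, 14.8, 16.2 and 14.8 (excess -0.59 ± 0.37). Slc7a4, of the cationic amino acid transporter family, gave 1, 6.41, 7.61, 1 and 6.995 with signals floored at 1 (excess -2.59 ± 0.66). Both stayed below the level in all 5 samples.

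The repeats of human 22q11.2 divide it into a proximal, a middle and a distal block. The common deletion spans all of them, and a rarer nested deletion is limited to the proximal block. Of 19 measured counterparts of the proximal block 11 were above background, with a median excess of 0.83. The middle block gave 2 of 2, Med15 and Klhl22. The distal block gave 5 of 8 with a median excess of 1.40, and 0 of 8 against the higher level, where the proximal block gave 5 of 19 and the middle block 1 of 2. Over all genes the shares were 54.0% at the first level and 30.1% at the higher one. No test of these shares was made.

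Probe sets of the same gene often differed in their calls. Of the 15 members with several probe sets, 3 (Hira, Lztr1 and Ufd1) had all of them called, 9 had some and 3 had none. In all 26 of the 55 probe sets (47.3%) were called, beside 50.9% of the 20380 probe sets of 1 gene. The median range of excess between probe sets of a member was 2.44 log2 units, beside 2.15 for all 4956 genes with several. Thap7 had the widest, 5.21, and Lztr1 the narrowest, 0.56. With the mean of all probe sets in place of the brightest, 13 of 29 members were above background. Of all 12393 genes 5913 were, so the members' share lay below that of all genes.

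**Figure D3:**
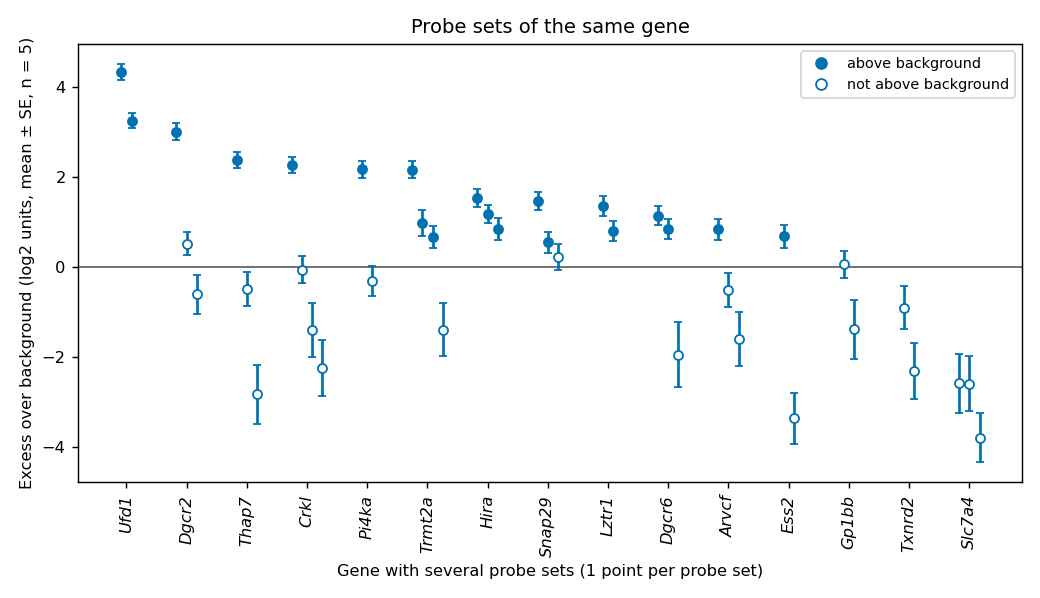
Excess over the background level (log2 units, mean ± SE, n = 5) of every probe set of the 15 members that have several, with 1 point per probe set. Filled points were called and open points were not, and Hira, Lztr1 and Ufd1 alone show several points that are all filled.

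Differences between the 5 samples were tested as the variance of each gene against that of genes of like signal, over 7405 genes whose mean lay above the level. Of the 21 members among them, 0 passed (F test against limma's variance trend, adjusted p below 0.05), beside 0.0810% of all genes. At an unadjusted p below 0.05 there were also 0 members, beside 5.55% of all genes. The median SD over the samples was 0.35 log2 units for the 18 called members and 0.30 for all 6688 called genes. The largest ratio of variance to the trend was that of Arvcf, 2.38, followed by Tango2, 2.25.

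Some samples were high or low for many called members at once. The mean deviation of these members from the gene means was 0.10, 0.03, -0.25, -0.13 and 0.24 log2 units in replicates 1 to 5. For all 6688 called genes it was 0.03, 0.02, -0.05, -0.03 and 0.03. After quantile normalization between arrays the values for the members were 0.10, 0.02, -0.21, -0.13 and 0.23. In replicate 3, 7 of the 18 had their lowest signal (38.9%, beside 23.9% of all called genes) and 0 their highest (18.0% of all). In replicate 5, 7 had their highest (38.9%, beside 23.0% of all) and 0 their lowest (16.5% of all). These counts rest on the brightest probe set of each gene, and other called probe sets of the same genes went both ways. Those of Trmt2a were lowest in replicate 5 (14.3 and 18.1). Another of Hira (12.3) and another of Lztr1 (26.3) were lowest in replicate 3. The summed signal of erythroid markers was highest in replicate 5 (18998) and next in replicate 3 (16246). That of neuronal markers was highest in replicate 3 (5525) and next in replicate 5 (4926). The part of red cells and neurons in the pattern was not tested. Ranbp1, Mrpl40 and the brightest probe set of Trmt2a stayed within 0.18 log2 units of their means in every sample.

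**Figure D4:**
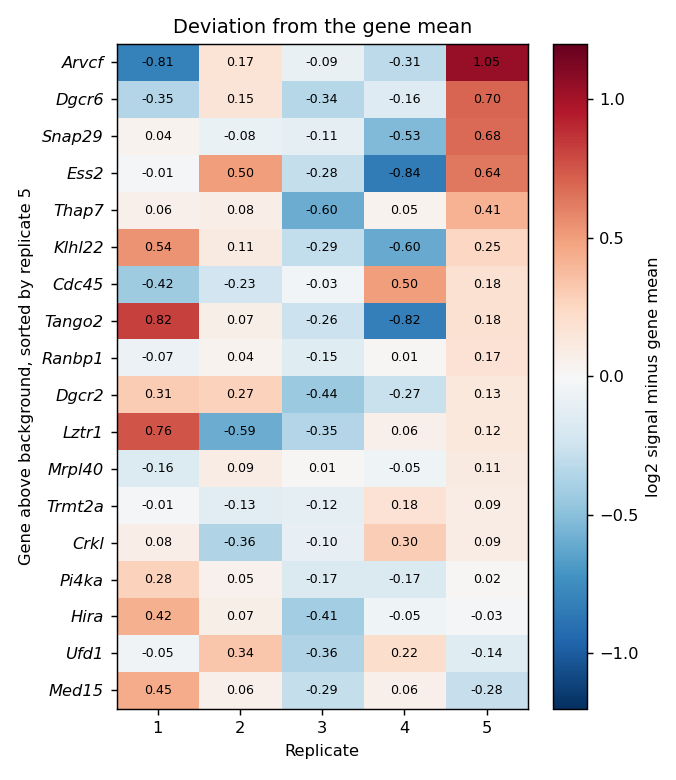
Log2 signal minus the mean of the gene over the 5 samples, for the 18 members above background (top to bottom by their value in replicate 5) in each replicate (left to right), with red above and blue below the mean. By the brightest probe set of each gene, replicate 3 holds the lowest signal of 7 genes and the highest of 0. Replicate 5 holds the highest of 7 and the lowest of 0.

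Genes that work with the members were taken as a list of 81 partners, of which 66 were measured and 57 were above background. This list was put together with results of these data known, so its count stands beside the 54.0% of all genes as a description. All 6 genes of the Ran cycle were called, with Ran itself at 6497 ± 508 (excess 8.39 ± 0.12, or 6.66 with plain _at probe sets). All 8 measured helicase genes were called, with Mcm4 at 1340.1 ± 211 (excess 6.10 ± 0.15, or 5.88 with plain _at probe sets). The 2 partners of Ufd1 were called, with the segregase Vcp at 914 ± 198 (excess 5.54 ± 0.15).

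Of 25 measured Mediator genes 20 were called, with Med1 at 1069 ± 115, and Med14, Med16, Med24, Med25 and Med27 were not. All 5 measured genes of the Crkl adaptor group were called. Crk, the closest relative of Crkl, gave 768, 802, 683, 344 and 654 (650.3 ± 181, excess 5.01 ± 0.20), lowest in replicate 4, where the Crkl signal was highest. Both signals are those of the brightest probe set. With the mean of all probe sets the excess was 1.55 for Crk and -0.36 for Crkl, and a link between their signals was not tested. Both measured Cullin-3 genes were called, with Cul3 at 537 ± 72.1 (excess 4.78 ± 0.16), as were both measured partners of Hira, with the histone chaperone Asf1a at 765 ± 81.5. With the mean of all probe sets the excess fell from 5.78 to 1.74 for Med1, to 2.67 for Cul3 and from 5.30 to 2.76 for Asf1a. Each of them was still called.

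Partners of several uncalled members were above background. Dicer1, which cuts the microRNA precursors downstream of Dgcr8, gave 923 ± 116 (excess 5.57 ± 0.15), and the export factor Xpo5 was called too. Rtn4, the ligand of Rtn4r, gave 1092 ± 72.2 (excess 5.82 ± 0.15), while the coreceptors Lingo1 and Ngfr were not called. Both mitochondrial thioredoxin genes were called beside the uncalled Txnrd2, with Prdx3 at 462 ± 122. The 3 cadherin and catenin partners of Arvcf were called, with Cdh2 at 585 ± 216, and so were both measured genes of the Pi4ka complex, with Efr3a at 88.1 ± 13.6, and both partners of Snap29, with Vamp8 at 76.3 ± 9.47.

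A list of 11 other genes in or next to the stretch was examined, of which 5 were measured. Of these, 1 was above background, beside 54.0% of all genes. That gene, Tmem191c, lies just outside the stretch of 1.69 Mb (27.8, 34.9, 18.3, 50.4 and 67.1, excess 0.89 ± 0.23). Of the 4 measured genes of the list that lie inside it, 0 were called. The stretch held 14 protein-coding genes that are no members. Smpd4, Ccdc74a, Vpreb2, Gm52241 and 2510002D24Rik among them were not on the list and were not examined. Tbx1 gave 44.7, 31.6, 25.6, 24.1 and 15.2 (excess 0.46 ± 0.28, adjusted p = 0.104, limma), with replicate 5 alone below the level. Its adjusted p in limma was 0.0128 without replicate 5, 0.0112 at the 90th percentile and 0.0327 with a floor of 16. In the other settings run Tbx1 was not called. The sperm kinase genes Tssk1 and Tssk2 and the carbonic anhydrase gene Car15 lay below the level in all 5 samples.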

How the data were processed

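The authors deposited linear intensity values, with 1 signal for each probe set on each array. The submitters' processing notes name GCOS as the software, and its version, algorithm and settings are not given in the sources used here. After trimming 2% at each end, all arrays had a mean signal of 150.1, so they had been scaled. Detection calls and probe-level intensities were not used here, and 5 arrays limit the precision.

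Of 22690 probe sets, 64 controls were left out. Of the rest, 20380 were annotated to 1 gene, 691 to several and 1555 to none, and symbols were updated by Entrez identifier for 20351. Signals under 1 were set to 1 before taking log2. Detection was an intercept fit in limma 3.58.1 (R 4.3.3, eBayes, trend and robust settings on) over all 12393 genes. The background families held 226 probe sets. Variance was tested by an F test against limma's robust trend. Both steps were also run on simulated data, but the outcome is not given here and is no support for the calls. Every measured member is named, with 1 partner of each called group, picked by highest excess only to choose names. Promoter windows are from RefSeq, GRCm38.p6. Alternatives were the higher level, the 90th percentile, a floor of 16, quantile normalization, other choices of probe set, eBayes without the trend and robust settings, and leaving out each replicate. The members and lists were chosen with earlier results of these data known.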

Additional observations from a re-analysis of the deposited data

Results flagged for a closer look

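In 47 genes (members, measured neighbours and named partners) the lowest and the highest log2 signals were compared with the rest, and 2 genes had a single distant sample. Chance gives about 1 in 20. P2rx6 was low in replicate 2 (6.67, against 14.6 to 16.2 in the other samples), with a gap of 0.887 of its whole range, and all its signals lay below the background level. Crk was low in replicate 4 (344, against 654 to 802), with a gap of 0.759 of its range.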

How the results depend on the processing

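The background level decided the most. With casein kinases and interferon receptors in the background set, 6 members, 3727 genes and 0 interval neighbours were above it. The excess then fell below 0 for Arvcf (-1.40), Cldn5 (-1.70), Dgcr6 (-1.09), Ess2 (-1.55), Gnb1l (-1.71), Gp1bb (-2.18), Hira (-0.70), Lztr1 (-0.88), Pi4ka (-0.061), Snap29 (-0.77), Tango2 (-1.01), Trmt2a (-0.072), Tbx1 (-1.77), Tmem191c (-1.33), Efr3a (-0.052) and Vamp8 (-0.26). The mean of all probe sets gave 13 members, 5913 genes and 0 neighbours, and turned Arvcf (-0.43), Crkl (-0.36), Ess2 (-1.35), Gp1bb (-0.67) and Thap7 (-0.32). Plain probe sets gave 16 members and turned Dgcr6 (-1.95) and Thap7 (-0.49). The 90th percentile and the floor of 16 each gave 20 members and 2 neighbours, and turned Zdhhc8 to 0.041 and 0.10. Without the trend and robust settings together, 17 members were called and 0 genes varied between samples, and with the floor of 16 18 genes varied, against 6.

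Leaving out 1 replicate gave 17 to 20 members, 6526 to 6748 genes, 57 to 58 partners, 1 to 2 neighbours, 0 variable members and 4 to 14 variable genes (10 without replicate 1 and 14 without replicate 2). It turned Gp1bb to -0.045, -0.077 and -0.0019 without replicates 1, 2 and 5 (range -0.077 to 0.30), and Zdhhc8 to 0.041 without replicate 2 (range -0.52 to 0.041). The count of partners stayed within 1.5 times the reported 57 in all settings run, with 43 at the higher level. Calling a gene from any of its probe sets, an alternative chosen after seeing the data, gave 18 members and 6685 genes. It nearly repeats the main rule, which takes the brightest probe set. No paired analysis was possible because there is 1 group. Members near the level cannot be told from background with 5 arrays.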
